A study of Homo sapiens with 20 samples.

Results

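The wild-type (WT) pancreatic progenitors (PPs) were compared with the WT human islet-like organoids (hILOs) that the same protocol makes from PPs. The members are 4 of the 20 libraries of the series, taken by their labels: 2 untreated WT PP libraries, collected at 0 h of a transcription block, and 2 WT hILO libraries. Both stages came from MEL1, a human embryonic stem cell line, in a version of which an INS allele carries GFP in place of normal insulin sequence, so that the line holds a single intact INS allele. Retinoic acid at 2 µM was given on days 7 to 8 on the way to both stages. PPs were in a medium with EGF at 50 ng/ml, the BMP receptor inhibitor LDN-193189 at 0.1 µM and vitamin C at 0.25 mM from day 9 to day 14. For hILOs the cells were then suspended as aggregates and kept from day 15 to day 22 with zinc sulfate at 10 µM, heparin at 10 µg/ml, the TGF-beta receptor inhibitor 616452 at 10 µM, thyroid hormone T3 at 1 µM, LDN-193189 at 0.1 µM, the gamma-secretase inhibitor compound E at 0.1 µM and vitamin C at 0.25 mM, without EGF. The labels end with that medium, whereas the study's methods add a later one that keeps zinc, heparin, 616452 and T3 but lacks LDN-193189 and compound E. The day on which the hILO libraries were collected is not given in the sources used here. The libraries are of whole cultures, so for each gene fewer cells of a type and less RNA per cell cannot be told apart.

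In the developing pancreas, multipotent progenitors carry PDX1, NKX6-1 and SOX9 and divide. Notch signalling between neighbouring cells holds many of them back from the endocrine fate, and a pulse of the factor NEUROG3 starts that fate. The endocrine cells that follow leave the cell cycle, switch on NEUROD1, PAX4 and ISL1, and build dense-core granules that store hormones with granins and prohormone convertases. gamma-Secretase cuts activated Notch receptors, growth factors such as EGF act through ERK, which induces its own inhibitors, and zinc ions induce metallothioneins through the factor MTF1. These agents were added or removed between the stages, and the gene groups are ordered by them and by the roles of the genes in endocrine cells. All the agents changed together with stage, so whether any agent caused a difference in its gene group was not tested.

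The levels compared are per length and per library total: for PPs the deposited CPM (reads scaled to the library total) divided by the exon length of the gene, for hILOs the deposited TPM (transcripts scaled to length and library total), both rescaled to the same sum over the 19565 protein-coding genes found in both files. The deposited CPM gave back 34835774 and 32273734 reads for the 2 WT PP libraries, and TPM keeps no depth. The 2 libraries of a stage differed by a median of 0.10 (PP) and 0.084 (hILO) on the log2 scale over genes at a level of 10 or more. Nothing in the labels says that the 2 libraries of a stage are separate differentiations, so p-values measure only the spread between these libraries. Stage coincides with the quantifier and unit, the RNA extraction kit, the amount of RNA used and the spike-ins of the PP libraries. Stage also coincides with the time between seeding and the start of differentiation, the media, the forming of aggregates and the days in culture. None of these can be told apart from stage. ALKBH5, the m6A demethylase that was knocked out in the A5-KO lines of the same study, had levels of 209 and 237 in the WT PPs and 92.9 and 97.2 in the WT hILOs, against 27.3 and 26.0 in A5-KO PPs and 5.04 and 4.22 in A5-KO hILOs.

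Promoters from RefSeq (GRCh38.p14), each the 250 bases before the transcription start in the direction of the gene, are shown for 5 genes that differed between the stages, with 3 kinds of motif searched. The first 2 belong to metallothioneins, which were higher in the hILOs, whose medium held zinc, and the capitals mark TGCGCNC or TGCACNC, the core of the metal response element. MT2A lies at chr16:56608334-56608583 on the plus strand with 7 matches and MT1H at chr16:56669564-56669813 on the plus strand with 8.
MT2A: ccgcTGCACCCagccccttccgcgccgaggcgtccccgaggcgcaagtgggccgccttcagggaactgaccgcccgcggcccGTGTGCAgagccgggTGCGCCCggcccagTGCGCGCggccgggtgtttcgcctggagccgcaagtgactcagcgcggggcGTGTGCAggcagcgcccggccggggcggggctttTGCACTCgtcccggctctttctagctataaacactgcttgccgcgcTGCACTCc
MT1H: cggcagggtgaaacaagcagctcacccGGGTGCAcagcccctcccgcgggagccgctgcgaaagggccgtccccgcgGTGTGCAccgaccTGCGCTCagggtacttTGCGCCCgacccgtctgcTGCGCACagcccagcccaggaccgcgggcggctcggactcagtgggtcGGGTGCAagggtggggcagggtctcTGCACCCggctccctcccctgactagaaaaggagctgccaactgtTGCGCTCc
Of 35116 RefSeq promoters of this length 24.8% held at least 1 such match and 0.37% held 4 or more, counting both strands. The limit of 4 is the count of MT1X, whose promoter is not shown, and the share with 7 or more was not counted. The next 2 belong to endocrine products, somatostatin (SST, chr3:187670395-187670644, minus strand) and the prohormone convertase PCSK1 (chr5:96433249-96433498, minus strand), and the capitals mark TGACGTCA, the cAMP response element, which 1.65% of the promoters held.
SST: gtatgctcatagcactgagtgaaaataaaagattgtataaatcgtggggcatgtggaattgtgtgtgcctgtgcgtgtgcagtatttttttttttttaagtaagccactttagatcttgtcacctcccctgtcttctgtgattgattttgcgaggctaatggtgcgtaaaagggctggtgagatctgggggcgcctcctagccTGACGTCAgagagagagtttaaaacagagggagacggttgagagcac
PCSK1: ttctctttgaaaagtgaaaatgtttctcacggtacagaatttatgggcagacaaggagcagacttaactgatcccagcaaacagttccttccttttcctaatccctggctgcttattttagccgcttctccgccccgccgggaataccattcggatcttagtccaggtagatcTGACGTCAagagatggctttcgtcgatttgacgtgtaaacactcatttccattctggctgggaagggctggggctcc
The last belongs to HES4, a Notch target (chr1:1000098-1000347, minus strand), with GTGGGAA, the core site of the Notch partner RBPJ, in capitals, which 5.43% of the promoters held.
HES4: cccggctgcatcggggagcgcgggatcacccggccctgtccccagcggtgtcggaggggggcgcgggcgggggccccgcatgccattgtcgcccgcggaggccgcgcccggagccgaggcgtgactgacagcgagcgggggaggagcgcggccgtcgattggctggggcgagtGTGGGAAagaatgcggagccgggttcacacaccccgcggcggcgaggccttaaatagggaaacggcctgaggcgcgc
Among the genes of the respective lists found in the table, the metal response match was in all 3 metallothioneins (MT1H, MT1X and MT2A) and in 2 of the other 5 genes of that list (SLC30A1 and SLC30A2), the cAMP response match in 4 of 18 hormone, granin and convertase genes, INS and GCG not among them, and the RBPJ match in 5 of 18 Notch pathway genes. A match describes the letters in this window and is not evidence of binding.

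Of 14335 genes tested with limma on log2(level + 1), 2010 (14%) were called higher in hILOs and 902 (6.29%) higher in PPs, 20.3% in either direction. The counts of called genes in each list below are to be read against these shares. A list near them does not stand out from all tested genes. A call needed an adjusted p (Benjamini-Hochberg, over all tested genes) under 0.05 together with a difference over 4-fold, and in every called gene the 2 libraries of one stage lay apart from the 2 of the other. The split depended on the scale: scaling to constitutive reference genes gave 1737 higher and 1406 lower, quantile normalization 1755 and 1223, and keeping the mitochondrially encoded genes 2399 and 525. The median log2 difference over all tested genes was -0.17, and other scalings moved it between -0.51 and 0.28. With 2 libraries a stage, an exact two-sided permutation test of a single gene cannot give a p below 0.33, so all calls rest on the spread that limma pools over genes.

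Genes that share sequence with other genes leaned towards hILOs. Among 7402 tested genes with no shared 75-base word the median log2 difference was -0.37, with 9.9% called higher in hILOs and 8.23% in PPs. It was 0.53 among 889 genes with over 25 to 50% of their transcript shared and 3.62 among 653 with over 75%, of which 72% were called higher in hILOs and 0.919% in PPs. Genes with under 10% shared sequence and under 10% exon overlap, called unshared here, were therefore counted apart: of 10431 such genes 953 (9.14%) were called higher in hILOs and 804 (7.71%) in PPs, 16.8% in either direction, around a median of -0.39. Whole neighbourhoods of genes were also near 0 in PPs. Of the 953 unshared genes called higher in hILOs, 576 had 3 or more tested unshared neighbours within 300 kb, and in 107 of these (18.6%) the neighbours' median log2 difference was over 2. The same held for 6 of 488 (1.23%) of the genes called higher in PPs and for 117 of 5758 (2.03%) of the genes not called. Shared sequence or exon overlap of 10% or more, and neighbour medians over 2, are given beside the main genes they touch, and their part in those differences was not tested.

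The hormone genes of the islet rose. Of 6 tested hormone genes 5 were called higher in hILOs, against 14% of all tested genes, and none lower, with a median log2 difference of 5.48. INS, which encodes insulin (chr11:2159779-2161221, GRCh38), was listed at 0 in both PP libraries and at 15357 and 15398 in the hILO libraries. GCG, the glucagon gene, was listed at 0 and 0 in PPs and 2583 and 2694 in hILOs. Neither had a listed transcript in PPs. Genes that every cell uses (PSMB3, TAF9, SUPT4H1 and EEF1G) were also listed at 0 in PPs, so no fold is given against a 0. INS shares 23.9% of its sequence and 37.5% of its exon bases with other genes, and the median log2 difference of the tested neighbours was 2.09 for INS and 2.26 for GCG. SST, the somatostatin gene of delta cells whose promoter is shown above, was at 10.7 and 6.85 in PPs and 449 and 435 in hILOs, a log2 difference of 5.53 ± 0.20 (SE, adjusted p = 4.82e-05). PPY, for pancreatic polypeptide, was at 1.45 and 1.55 in PPs and 119.5 and 95.1 in hILOs, a log2 difference of 5.43 ± 0.14 (SE, adjusted p = 2.41e-05). GHRL, for ghrelin, was at 0.348 and 0 in PPs and 22.8 and 37.9 in hILOs, with 18.1% of its exon bases shared with another gene. These 3 genes were low but detected in PPs, or at 0 in a single library, and no PP library reached the hILO levels. PYY, for peptide YY, was already at 256 and 291 in PPs and at 445 and 433 in hILOs, a difference of 0.69 ± 0.073 that missed the 4-fold limit. IAPP, for the amyloid peptide that beta cells release with insulin, was at 0.535 and 0.889 in hILOs and listed at 0 in PPs, too low to test.

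Granule proteins and the enzymes that cut prohormones rose with the hormones: 12 of 14 were called higher in hILOs and none lower, with a median of 6.57, and 11 of the 13 unshared ones. CHGA, for chromogranin A, the main soluble granin of dense-core granules (chr14:92923150-92935285), was at 0.287 and 1.07 in PPs and 21764 and 24676 in hILOs. That was the largest log2 difference of an unshared gene (13.79 ± 0.24, adjusted p = 1.21e-05). The neighbours of CHGA had a median of 3.67, among them MOAP1 at 0.343 and 0.305 in PPs and 50.2 and 48.9 in hILOs, while LGMN (0.27) and GOLGA5 (-0.28) next to it were within 0.3. CHGB, for the sister protein chromogranin B, was at 0.195 and 0.485 in PPs and 187 and 185 in hILOs, a log2 difference of 7.14 ± 0.14 (SE, adjusted p = 1.38e-05). Its neighbours had a median of -0.10. SCG2, a granin that is also cut to secretoneurin, was at 8.35 and 10.3 in PPs and 1480.2 and 1517 in hILOs, a log2 difference of 7.19 ± 0.10 (SE, adjusted p = 8.99e-06). PCSK1, the convertase that opens proinsulin, was at 0.108 and 0.0863 in PPs and 339 and 301 in hILOs, a log2 difference of 8.19 ± 0.10 (SE, adjusted p = 7.32e-06). PCSK2, which makes glucagon from its precursor, was at 0 and 0.395 in PPs and 179.6 and 193 in hILOs, a log2 difference of 7.31 ± 0.19 (SE, adjusted p = 2.37e-05). All 4 were near or below a level of 10 in every PP library and above 100 in every hILO library. SLC30A8, the zinc carrier of insulin granules, went from 11.6 and 11.0 to 157 and 213 (3.90 ± 0.16). CPE, which trims the cut hormones, was abundant at both stages, at 284 and 302 in PPs and 1144 and 1143 in hILOs, a difference of 1.96 ± 0.045 that fell just short of 4-fold and passed it without PP replicate 2 (2.00). PAM, the amidating enzyme, was not called (-0.04 ± 0.28, adjusted p = 0.895), with 62.9 and 110.5 in the 2 hILO libraries.

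**Figure D1:**
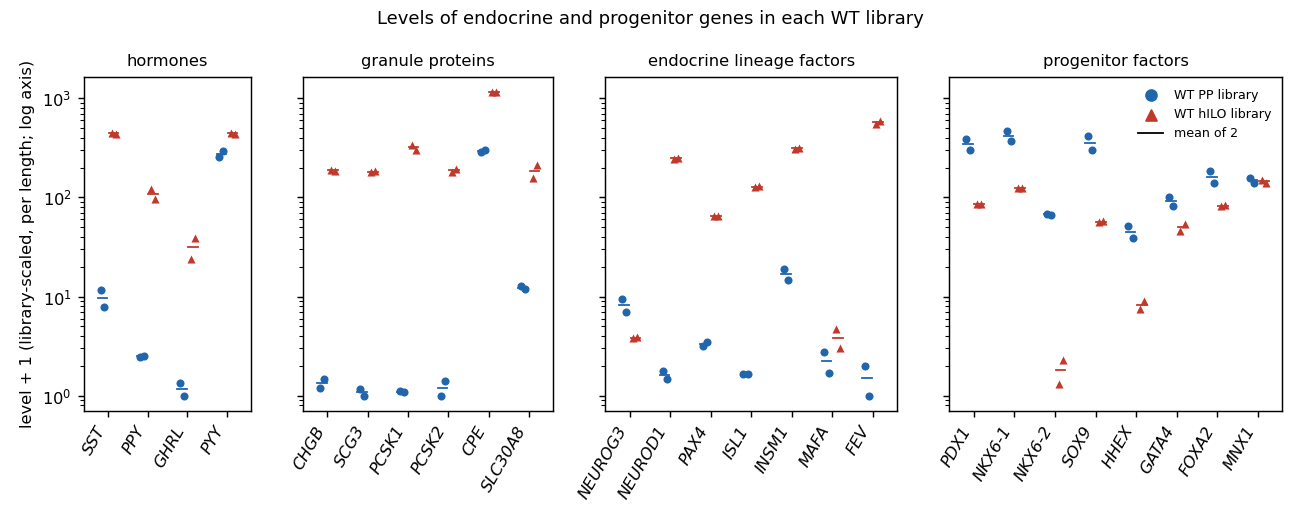
Level + 1 (library-scaled, per length, log axis) of endocrine and progenitor genes in each WT library: circles are the 2 PP libraries, triangles the 2 hILO libraries and bars their means. The granule genes other than CPE and most lineage factor genes separate by over 4-fold, whereas PDX1, NKX6-1 and MNX1 remain above 80 in every hILO library.

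Part of the machinery that docks and fuses granules rose too, with 9 of 17 genes called higher, none lower and a median of 2.06. SNAP25, a membrane SNARE, was at 1.28 and 1.18 in PPs and 48.4 and 56.1 in hILOs, a log2 difference of 4.57 ± 0.12 (SE, adjusted p = 2.59e-05), and its partner syntaxin STX1A was at 4.54 and 5.67 in PPs and 129 and 123 in hILOs, a log2 difference of 4.38 ± 0.12 (SE, adjusted p = 2.5e-05). Among the synaptotagmin genes, SYT4 rose by 5.61, SYT13 by 4.89 and SYT7 by 3.24 on the log2 scale. VAMP2, the vesicle SNARE, was at 25.6 and 27.4 in PPs and 45.5 and 43.6 in hILOs, a smaller difference that was not called. RAB27A, which tethers granules (2.88), and UNC13A, which primes them (2.80), rose as well, while the complexin CPLX1 (1.79) and the RAB3 genes RAB3A (1.88) and RAB3B (0.37) were not called.

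Of 20 tested ion channel and glucose sensing genes 10 rose and none fell (median 2.2). The 2 subunits of the KATP channel, which closes when glucose is burnt, both rose. KCNJ11, its pore, was at 1.64 and 0.748 in PPs and 54.7 and 51.7 in hILOs, a log2 difference of 4.66 ± 0.23 (SE, adjusted p = 9.82e-05). ABCC8, the sulfonylurea receptor, was at 0.00530 and 0.00565 in PPs and 66.5 and 69.9 in hILOs, a log2 difference of 6.10 ± 0.11 (SE, adjusted p = 1.21e-05). These genes lie side by side, and the medians of their neighbours were 1.54 and 1.78. KCNK16, a potassium channel of islets, was at 1.24 and 0.936 in PPs and 315 and 285 in hILOs, a log2 difference of 7.17 ± 0.11 (SE, adjusted p = 1.01e-05). FFAR1, a fatty acid receptor of beta cells, was listed at 0 and 0 in PPs and 15.9 and 16.5 in hILOs. Neither of the glucose carriers was called: SLC2A1 was at 239 and 241 in PPs and 343 and 342 in hILOs (0.51), and SLC2A2 at 27.6 and 23.8 and 36.2 and 32.3 (0.40). GLP1R, the incretin receptor, was at 4.84 and 6.20 in PPs and 9.37 and 10.6 in hILOs (0.76), and was not called.

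Endocrine transcription factors rose in 18 of 24 tested genes and fell in none (median 4.06; 15 of 21 unshared). NEUROD1, which acts just below NEUROG3, was at 0.775 and 0.488 in PPs and 245 and 248 in hILOs, a log2 difference of 7.25 ± 0.12 (SE, adjusted p = 1.05e-05). ISL1 was at 0.667 and 0.656 in PPs and 126 and 128 in hILOs, a log2 difference of 6.27 ± 0.091 (SE, adjusted p = 8.86e-06). PAX4, which favours the beta fate, rose from 2.17 and 2.46 to 64.6 and 63.6 (4.30 ± 0.10). INSM1 and RFX6 were already above 4 in the PPs and rose by 4.23 and 4.44. NEUROG3 itself was at 8.43 and 6.02 in PPs and 2.81 and 2.89 in hILOs (-1.08 ± 0.18, not called). MAFA, a mark of mature beta cells, was at 1.74 and 0.709 in PPs and 3.70 and 2.03 in hILOs (0.80 ± 0.34, adjusted p = 0.0854). The 2 libraries of each stage lay nearly as far apart in MAFA as the means of the stages. SOX4 and SOX11 were lower in hILOs (-1.88 and -1.86) without reaching 4-fold. In ST18 the call rested on unlike hILO libraries, at 17.1 and 1.78.

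Progenitor factors were mostly lower in hILOs, in 16 of 22 tested genes, but few by over 4-fold. The summed level of the list went from 2448 and 1935 in PPs to 933 and 965 in hILOs. Of 22 tested genes 3 were called lower in hILOs and none higher, and the median was -0.91, against -0.17 over all genes. PDX1 was at 387 and 298 in PPs and 84.6 and 84.4 in hILOs. That is a difference of -1.99 ± 0.13 (adjusted p = 0.000241), which passed the 4-fold limit without PP replicate 2 (-2.18) and with scaling to reference genes. NKX6-1, which beta cells keep, was at 471 and 366 and 122 and 123 (-1.75 ± 0.13), and MNX1 was at 157 and 137 and 149 and 139 (-0.03 ± 0.084, adjusted p = 0.785). SOX9, which progenitors and ducts share, fell from 412 and 299 to 55.5 and 56.7 (-2.62 ± 0.16). HHEX, a foregut factor that delta cells also use, fell from 50.4 and 38.2 to 6.57 and 8.03 (-2.44 ± 0.18). NKX6-2 showed the largest fall of the list, from 67.3 and 65.2 to 0.318 and 1.32 (-5.27 ± 0.29, adjusted p = 0.000144), with 10.9% of its exon bases shared. GATA4 (-0.87), GATA6 (-1.66, 10.9% of exon bases shared), FOXA2 (-0.95) and ONECUT1 (-1.84, called without hILO replicate 2 at -2.13) were lower by less than 4-fold, and PTF1A, the acinar and early progenitor factor, was too low to test at either stage.

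Receptors and targets of Notch were lower in the hILOs, which had been kept with a gamma-secretase inhibitor from day 15 to day 22 and, if they were collected after the later medium of the methods, without it before collection. Of 22 tested pathway genes 8 fell and 2 rose (median -1.36; 8 and 2 of the 21 unshared). Of the receptors, NOTCH1 was at 25.7 and 24.8 in PPs and 1.30 and 1.72 in hILOs, a log2 difference of -3.39 ± 0.14 (SE, adjusted p = 5.98e-05). NOTCH2 was at 122 and 119 in PPs and 1.41 and 1.32 in hILOs, a log2 difference of -5.68 ± 0.088 (SE, adjusted p = 9.52e-06), and NOTCH3 at 37.3 and 34.8 in PPs and 1.2 and 1.61 in hILOs (-3.95 ± 0.14). LFNG, which adds sugars to the receptors, fell from 79.9 and 80.3 to 6.43 and 8.81 (-3.25 ± 0.15). Among the targets HES4, whose promoter is shown above, fell from 296 and 284 to 55.5 and 61.0 (-2.30 ± 0.066), HEY1 from 33.0 and 31.7 to 0.839 and 2.99 (-3.62 ± 0.39), and HEY2 and DTX1 had differences of -2.83 and -3.06. HES1, the target best known in progenitors, was at 136 and 112 in PPs and 52.6 and 52.4 in hILOs (-1.22 ± 0.11, not called). The ligands split, since DLL4 rose from 5.08 and 4.02 to 40.6 and 39.9 (2.90 ± 0.13) and DLL1 from 0 and 0.0403 to 3.31 and 3.38 (2.09 ± 0.12, lost under quantile normalization and under scaling to reference genes), while JAG1 was lower at 160.4 and 142 against 40.0 and 40.7 (-1.88 ± 0.078, not called). RBPJ, the DNA-binding partner, was at 34.5 and 32.7 in PPs and 35.1 and 26.8 in hILOs (-0.13 ± 0.15).

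ERK feedback genes were lower in hILOs, whose medium held no EGF: 8 of 16 fell and 1 rose (median -2.01). SPRY2, a Sprouty inhibitor of the pathway, was at 606 and 420.2 in PPs and 24.7 and 25.8 in hILOs, a log2 difference of -4.27 ± 0.19 (SE, adjusted p = 7.3e-05). SPRY1 fell from 202 and 148 to 14.2 and 11.2 (-3.67 ± 0.19) and SPRY4 from 61.5 and 49.0 to 5.83 and 7.53 (-2.87 ± 0.17). ETV4, a factor that ERK induces, was at 211 and 208 in PPs and 33.5 and 28.6 in hILOs, a log2 difference of -2.72 ± 0.089 (SE, adjusted p = 3.76e-05). EGR1 and FOSL1, immediate early factors, fell as well, with log2 differences of -3.68 and -3.87. DUSP6, the phosphatase of ERK itself, fell from 316 and 227 to 45.1 and 47.4 (-2.51 ± 0.17) with 22.2% of its sequence shared. For the Sprouty genes and DUSP6 PP replicate 1 was above replicate 2, and both lay above both hILO libraries. The rise was in IER3 (5.73), which shares 29.7% of its sequence and whose neighbours had a median of 4.60. EGFR, the receptor, was at 28.5 and 27.5 in PPs and 12.0 and 12.3 in hILOs and was not called.

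Retinoic acid genes went in both directions (4 of 12 fell, 1 rose, and the sign of the median, -0.57, changed in 3 of 22 alternatives). CRABP2, a retinoic acid carrier, fell from 71.4 and 67.6 to 4.97 and 5.62 (-3.49 ± 0.097). ALDH1A2, which makes retinoic acid, fell from 69.8 and 71.3 to 5.21 and 5.45 (-3.50 ± 0.081), and RARG and CYP26B1 fell as well (-2.49 and -2.08). Among 20 TGF-beta and BMP genes 4 fell and 1 rose, against 6.29% and 14% of all tested genes, with a median of -1.21 that turned to 0.20 with median transcript length. TGFB1, the ligand, fell from 85.2 and 84.3 to 5.75 and 7.61 (-3.49 ± 0.14). The BMP targets ID1 and ID3 were at 702 and 617 and 609 and 525 in PPs and 199 and 207 and 161 and 148 in hILOs, under 4-fold lower. Of 8 thyroid hormone genes DIO1, a deiodinase that T3 induces, rose from 0 and 0.0675 to 19.7 and 20.5 (4.35 ± 0.12) and the corepressor HR from 0.272 and 0.135 to 7.39 and 5.94 (2.67 ± 0.16). KLF9, another T3 target, was at 15.5 and 11.4 in PPs and 12.2 and 15.1 in hILOs (0.03 ± 0.19, adjusted p = 0.894).

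Metallothioneins, the small proteins that bind zinc, were higher by large amounts. In the list of metallothioneins and zinc carriers 8 of 14 genes rose and 1 fell (median 3.30; 7 and 1 of 13 unshared), and all 8 that rose were metallothioneins. MT2A was at 5.37 and 9.44 in PPs and 177 and 184 in hILOs, a log2 difference of 4.48 ± 0.25 (SE, adjusted p = 0.000144). MT1G was at 0.770 and 1.44 in PPs and 278 and 264 in hILOs, a log2 difference of 7.03 ± 0.17 (SE, adjusted p = 2.17e-05), and MT1F at 2.89 and 1.66 in PPs and 278 and 263 in hILOs (6.40 ± 0.20). MT1H was at 0 and 0.852 in PPs and 47.4 and 40.6 in hILOs (5.04 ± 0.33). These genes stand in a cluster on chromosome 16, and count among each other's neighbours, whose medians were 3.30 for MT1G and MT1H, 3.38 for MT2A and 2.13 for MT1F. The zinc exporter SLC30A1, which MTF1 also induces, was not higher but lower in hILOs, at 192 and 136 in PPs and 68.5 and 71.1 in hILOs (-1.2 ± 0.18, not called). The importer SLC39A10, which zinc is known to repress, fell from 179 and 171 to 23.4 and 24.0 (-2.83 ± 0.058, adjusted p = 1.49e-05).

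**Figure D2:**
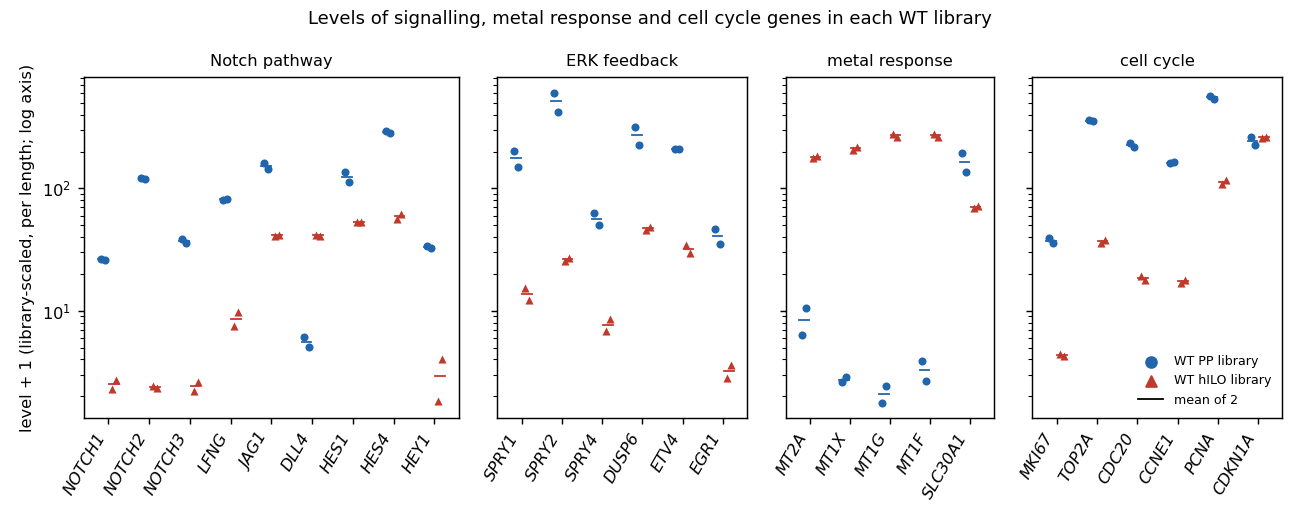
Level + 1 (library-scaled, per length, log axis) of Notch, ERK feedback, metal response and cell cycle genes in each WT library, with circles for the 2 PP libraries, triangles for the 2 hILO libraries and bars for the means. DLL4 and the metallothioneins lie higher in hILOs, CDKN1A overlaps between stages, and the other genes lie higher in PPs.

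Mitosis genes fell almost throughout. Of 24 mitosis genes 22 were called lower in hILOs and 1 higher (median -2.83; 20 and none of 21 unshared), against 6.29% of all tested genes called lower. MKI67, the proliferation antigen, was at 38.1 and 34.8 in PPs and 3.42 and 3.26 in hILOs, a log2 difference of -3.11 ± 0.11 (SE, adjusted p = 4e-05). TOP2A, which untangles chromosomes, was at 359 and 353 in PPs and 34.9 and 37.2 in hILOs, a log2 difference of -3.27 ± 0.055 (SE, adjusted p = 1.12e-05), CDK1 at 166 and 154 in PPs and 20.1 and 18.0 in hILOs (-3.01 ± 0.083) and CDC20 at 236 and 216 and 18.3 and 16.7 (-3.61 ± 0.080). The exceptions were ESPL1 (-1.43, not called) and PRC1, which rose by 3.45 and shares 63% of its sequence. DNA replication genes fell in 10 of 24 cases and rose in none (median -1.83). PCNA, the replication clamp, fell from 570.2 and 535 to 107 and 117 (-2.30 ± 0.067) and CCNE1, the cyclin of S phase entry, from 159 and 163 to 15.9 and 17.0 (-3.22 ± 0.065), whereas most MCM helicase genes were lower by less than 4-fold (MCM7 -1.76, MCM6 -1.19). Of 12 cell cycle inhibitors 1 was called higher and 1 lower, against 14% and 6.29% of all tested genes, so the list did not stand out. CDKN1C rose from 125 and 106 to 483 and 473 (2.04 ± 0.087), a call lost without PP replicate 2 (1.93) and in a neighbourhood with a median of 3.63. CDKN2B fell from 173 and 149 to 34.6 and 38.2 (-2.11 ± 0.099). CDKN1A overlapped between the stages, at 264 and 226 in PPs and 258 and 262 in hILOs (0.09 ± 0.085).

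Genes with the largest differences were mostly drawn from these programmes. Of the 12 with the largest rise at a mean level of 10 or more, 4 were unshared, CHGA, GAST, GCG and CRYBA2, and the others included INS, MIF and ribosomal protein genes such as RPS18 with shared sequence. GAST, for the hormone gastrin, was listed at 0 and 0 in PPs and 3137 and 3179 in hILOs, with a neighbour median of -0.22. CRYBA2, a crystallin gene known from islets, was listed at 0 and 0 and 1161 and 1146. FEV, a factor of serotonin-type and endocrine precursor cells that lies next to CRYBA2, was at 1.01 and 0 in PPs and 551 and 586 in hILOs (8.65 ± 0.35). All 3 were at or near 0 in the PPs and above 500 in both hILO libraries. Of the 12 with the largest fall 11 were unshared. GNRH2, a releasing hormone gene, was at 106 and 108 in PPs and 0.421 and 0.649 in hILOs, a log2 difference of -6.14 ± 0.12 (SE, adjusted p = 1.4e-05). SHISA2, a receptor retention factor for WNT and FGF signalling, was at 885 and 688 in PPs and 11.1 and 11.1 in hILOs, a log2 difference of -6.01 ± 0.13 (SE, adjusted p = 1.71e-05). SULF1, which edits heparan sulfate, fell from 178 and 179 to 1.60 and 3.81 (-5.66 ± 0.31), RGS5 from 142 and 165 to 3.21 and 3.07 (-5.22 ± 0.10), FLT1, a VEGF receptor, from 37.9 and 37.4 to 0.166 and 0.158 (-5.06 ± 0.11), OLFM4 from 37.1 and 40.2 to 0.0406 and 0.0434 (-5.25 ± 0.12), and MMP3, a matrix protease, from 56.1 and 56.5 to 1.19 and 0.564 (-4.95 ± 0.19).

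Markers of other endoderm and neural cells moved with stage as well, and their part in the differences above was not tested. Of 18 genes for proteins that hepatocytes secrete 13 rose and none fell (median 3.86), and their summed level went from 4031 and 4219.9 in PPs to 35580.3 and 36109 in hILOs. TTR, for transthyretin, which islet cells also make, was at 15.3 and 16.9 in PPs and 8869 and 8958 in hILOs, a log2 difference of 9.03 ± 0.059 (SE, adjusted p = 2.97e-06). Its neighbours had a median of -0.51. ALB, for albumin, was at 6.61 and 6.51 in PPs and 1101 and 1103 in hILOs, a log2 difference of 7.19 ± 0.048 (SE, adjusted p = 2.97e-06), AFP, for its fetal relative, at 886 and 856 in PPs and 6522 and 6801 in hILOs (2.93 ± 0.040), and APOA1 at 572 and 575 and 3569 and 3727 (2.67 ± 0.038, 11.2% of exon bases shared). AFP and APOA1 were thus already abundant in PPs, while ALB was not. FGB, a fibrinogen chain, was at 5.25 and 3.49 in PPs and 1604 and 1654 in hILOs, a log2 difference of 8.27 ± 0.17 (SE, adjusted p = 1.51e-05). ALB and AFP are neighbours of each other with a neighbour median of 2.73, and that of FGB was 2.93. Intestinal genes rose in 7 of 11 cases and 1 fell (median 3.06), with MUC13, a mucin, going from 110.4 and 106 to 2520.3 and 2606 (4.55 ± 0.043) and FABP2 from 4.67 and 1.87 to 186 and 186 (5.53 ± 0.34). The intestinal factors did not follow, since CDX2 was at 213 and 179 in PPs and 88.2 and 87.4 in hILOs (-1.14 ± 0.096, not called) and CDX1 fell (-2.93). The summed level of the whole intestinal list went from 1069 and 1044 in PPs to 5724 and 5766 in hILOs.

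Enterochromaffin-type genes, which serotonin-making cells use, rose in 6 of 7 cases and fell in none (median 4.68). TPH1, the first enzyme of serotonin synthesis, was at 0.408 and 0.408 in PPs and 259.6 and 269.7 in hILOs, a log2 difference of 7.56 ± 0.083 (SE, adjusted p = 6.25e-06), with a neighbour median of -0.10. TAC1, for substance P, was listed at 0 and 0 in PPs and 39.2 and 39.8 in hILOs. The monoamine carrier SLC18A1 was present at both stages, at 24.5 and 21.4 and 52.8 and 43.6 (1.03 ± 0.13, not called). The summed level of the list went from 145 and 143 to 1176 and 1161. Neuronal genes rose in 8 of 11 cases (median 3.26; 4 of 6 unshared) and their sum from 18.7 and 19.3 to 1152 and 1169. STMN2, a tubulin-binding protein of nerve cells and endocrine cells, was at 2.12 and 1.89 in PPs and 531 and 543 in hILOs, a log2 difference of 7.48 ± 0.073 (SE, adjusted p = 5.9e-06), whereas ELAVL4, which defines neurons, was below 0.2 in every library.

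Exocrine and duct genes did not form a block. None of 11 duct genes was called (median 0.50), among them KRT19 at 1124 and 972 in PPs and 741 and 733 in hILOs (-0.50 ± 0.078), and the sum of the list was 1915 and 1852 in PPs and 1734 and 1729 in hILOs. Of 10 tested acinar genes 3 rose and 1 fell (1 and 1 of the 6 unshared), against 14% and 6.29% of all tested genes. SPINK1, a trypsin inhibitor, was at 16.6 and 19.4 in PPs and at unlike levels of 645 and 240.0 in the 2 hILO libraries, and GP2, the zymogen granule protein that also marks PPs, fell from 58.8 and 68.5 to 12.1 and 11.7 (-2.32 ± 0.10). The elastase gene CELA3A (2.06) and the colipase gene CLPS (2.16) were called higher, and neither is unshared. The call of CELA3A was lost without PP replicate 1 (1.98) or hILO replicate 2 (1.88), and that of CLPS without PP replicate 2 (1.88). The enzyme genes PNLIP, AMY2A, CTRB1 and CTRB2 were under 0.5 in every library and were not tested. The sum of the acinar list was 119 and 135 in PPs and 731 and 334 in hILOs. Mesenchyme genes summed to 515 and 498 in PPs and 344 and 339 in hILOs, most of it VIM (33.4% of its sequence shared). Of 11 tested mesenchyme genes 3 fell, among them COL3A1 and COL1A2 (-2.60 and -2.56), and 1 rose, TWIST1 (2.05, a call lost without PP replicate 1 or hILO replicate 1), with the defining markers DCN and PDGFRA under 1 throughout. Endothelial and blood genes summed to 3.17 and 3.22 in PPs and 2.48 and 2.53 in hILOs, with CD34 at 0 in all 4 libraries.

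Of the pluripotency list POU5F1 and NANOG, which define stem cells, were at or below 0.21 in every library, and 5 of 8 tested genes fell with none rising (median -2.26). LIN28A, a fetal RNA-binding protein, was at 151 and 144 in PPs and 5.39 and 6.30 in hILOs, a log2 difference of -4.44 ± 0.096 (SE, adjusted p = 1.66e-05), and LIN28B was at 127 and 120.2 in PPs and 21.8 and 19.7 in hILOs (-2.52 ± 0.079). IGF2BP1, an m6A reader of the same fetal kind, fell from 129 and 120.1 to 23.2 and 10.1 (-2.94 ± 0.39). SOX17, a definitive endoderm factor, was at 0 in all 4 libraries. Of 11 m6A reader genes 1 was called higher and 1 lower, and of 3 demethylase genes none, against 20.3% of all tested genes in either direction. METTL3, the methyltransferase, was at 45.5 and 41.4 in PPs and 44.4 and 42.3 in hILOs (adjusted p = 0.98), and of 9 writer genes only RBM15 was called (-2.37). ALKBH5 had a log2 difference of -1.22 ± 0.079 (adjusted p = 0.000222) and was not called, and the other demethylase, FTO, was at 8.09 and 6.87 and 8.20 and 6.86 (0.01 ± 0.15, with -2.14 when lengths were not corrected). YTHDF2, a reader that speeds mRNA decay, was at 205 and 173 in PPs and 86.0 and 83.4 in hILOs (-1.14 ± 0.094, 12.2% of its sequence shared). YTHDC1 was called higher, but its PP libraries were at 10.4 and 1.03 and the call was lost without any of 3 of the 4 libraries.

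Of 12 splicing genes 2 were called higher and 2 lower, and of 19 adhesion genes 2 and 2. Of 21 glycolysis and hypoxia genes 3 were called higher and 2 lower, against 14% and 6.29% of all tested genes. ESRP1, an epithelial splicing factor, fell from 22.3 and 21.9 to 0.911 and 0.422 (-3.81 ± 0.18), and CELF3, a neuroendocrine splicing factor, rose from 0.213 and 0.159 to 45.8 and 53.1 (5.41 ± 0.13). REST, the repressor of neuroendocrine genes, was lower but not called, at 26.2 and 20.9 in PPs and 6.09 and 6.53 in hILOs (-1.74 ± 0.14). EPCAM and CDH1 of the epithelial list differed by 0.57 and -0.46, and CLDN7, a tight junction claudin, rose from 38.6 and 37.7 to 426 and 432 (3.46 ± 0.046), with 10.5% of its sequence shared. Of 12 YAP and TEAD genes 4 fell and none rose, TEAD4 most, from 38.1 and 37.7 to 2.23 and 3.01 (-3.43 ± 0.14, with a neighbour median of -2.32). In the list of glycolysis and hypoxia genes VEGFA, the vascular growth factor, rose from 42.9 and 42.0 to 464 and 493 (3.46 ± 0.053) and ADM, for adrenomedullin, from 5.72 and 6.03 to 75.1 and 74.6 (3.46 ± 0.079), while CA9 fell (-3.19, 27.1% of its sequence shared) and LDHA was at -0.05. The median of that list, -0.035, changed sign in 8 of 22 alternatives. All 4 respiratory chain genes called higher, of 21, shared over 40% of their sequence, and none of the 14 unshared ones was called. Of 17 genes of the unfolded protein response only DDIT3 was called (2.44, 24.6% shared).

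The same stage difference was measured in the A5-KO cells, which lack ALKBH5 and were grown by the same protocol, and the interaction of stage and genotype was tested with limma over 14603 genes. The WT difference was higher in 687 genes (4.7%) and lower in 385 (2.64%), 7.34% in either direction, at an adjusted p under 0.05 and over 1.5-fold. Median-of-ratios scaling gave 602 and 539, and quantile normalization 618 and 546. Without WT PP replicate 2 the counts were 303 and 211, and without WT PP replicate 1 they were 385 and 218. The fall of cell cycle genes was smaller in WT than in A5-KO: 15 of 24 mitosis genes and 16 of 24 DNA replication genes had a higher WT difference and none a lower one, which became 5 and 9 without WT PP replicate 2 and 7 and 12 without WT PP replicate 1. The log2 difference of TOP2A was -3.27 in WT and -4.24 in A5-KO (difference 0.97 ± 0.099, adjusted p = 0.0035). The rise of SST was larger in WT, at 5.53 against 3.91 (difference 1.62 ± 0.30, adjusted p = 0.021), and that of PPY at 5.43 against 3.1 (difference 2.33 ± 0.38, adjusted p = 0.0152). For INS, listed at 0 in the A5-KO PPs too, the hILO levels were 15357 and 15398 in WT and 9217 and 9372 in A5-KO. NEUROD1 rose less in WT, by 7.25 against 8.25 (difference -0.99 ± 0.17, adjusted p = 0.0167). Differences in PDX1 (-0.34 ± 0.17, adjusted p = 0.268), SOX9 (-0.01 ± 0.25, adjusted p = 0.992) and NKX6-1 (-0.31 ± 0.16, adjusted p = 0.26) did not pass the test. The call of SST was lost without any 1 of the 4 hILO libraries or without A5-KO PP replicate 1 (values 1.38 to 1.65), that of NEUROD1 without any 1 of the 4 hILO libraries (-1.003 to -0.986), and that of PPY without either WT PP library or WT hILO replicate 1 (2.16 to 2.36). TOP2A kept its call without any 1 of the 8 libraries.

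Some genes stood far apart between the genotypes. TMEM176A was at 0 and 0.222 in WT PPs and 133 and 124 in WT hILOs, against 0 and 0 in A5-KO PPs and 0.212 and 0.523 in A5-KO hILOs (difference of the log2 differences 6.43 ± 0.24, adjusted p = 0.000327). Its neighbour TMEM176B followed the same pattern, at 96.3 and 104 in WT hILOs and 0.905 and 1.90 in A5-KO hILOs. MT1H, the metallothionein whose promoter is shown above, was at 47.4 and 40.6 in WT hILOs and 0.505 and 0.787 in A5-KO hILOs (difference 4.33 ± 0.40, adjusted p = 0.00273), while MT2A rose in both genotypes (4.48 and 3.88, difference 0.60 ± 0.37, adjusted p = 0.347). EPHB2, an ephrin receptor, was in WT at 16.3 and 19.2 in PPs and 12.5 and 12.2 in hILOs, and in A5-KO at 16.5 and 16.7 in PPs and 0.403 and 0.372 in hILOs (difference 3.18 ± 0.17, adjusted p = 0.000474). In the other direction SRRM3, a splicing factor of neuroendocrine cells, fell in WT from 11.8 and 16.3 to 2.28 and 2.61 and was at 0.162 and 0.148 in A5-KO PPs and 1.94 and 5.12 in A5-KO hILOs (difference -3.99 ± 0.47, adjusted p = 0.00549). The WT stage call of SRRM3 was lost without PP replicate 2 (-1.90) and under median-of-ratios scaling.

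**Figure D3:**
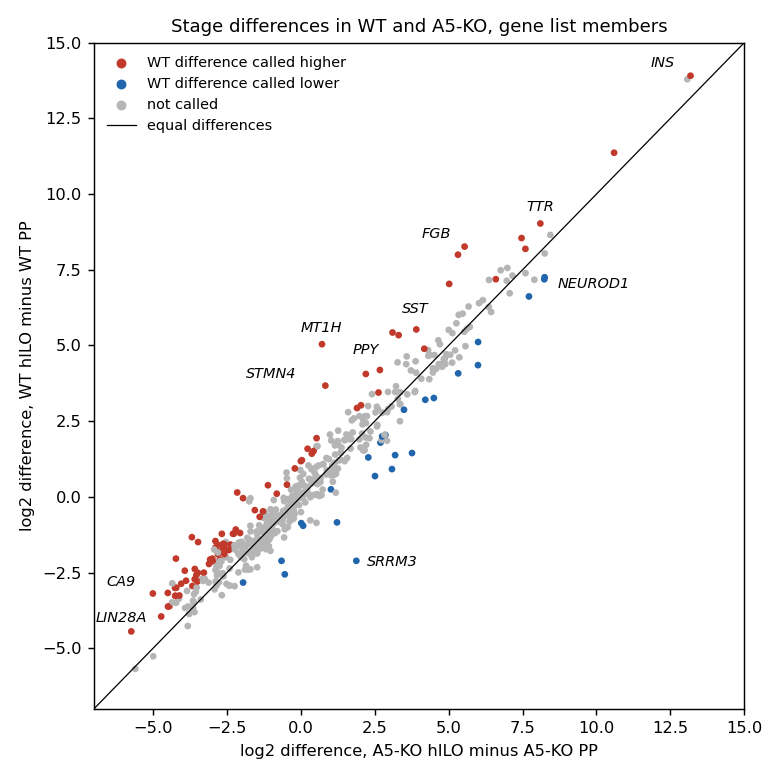
Each point is a gene of the lists, placed by its log2 stage difference (hILO minus PP) in A5-KO on the horizontal and in WT on the vertical axis, with the line of equal differences. Red marks a WT difference called higher and blue one called lower; MT1H and STMN4 lie far above the line and SRRM3 far below it.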

How the data were processed

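RNA-seq of WT PPs at 0 h and WT hILOs (2 libraries each) was analysed, with the 4 matching A5-KO libraries for the interaction. Reads were trimmed with fastp and aligned to hg38 with HISAT2 (2.1.0, per the submitters' processing notes). The PP values are CPM that the authors deposited after removal of spike-ins, and the hILO values are TPM that the authors deposited from StringTie. The annotation release and the counter behind CPM are not given in the sources used here. All CPM values came back to whole reads (100%, tolerance 0.1), but TPM holds no counts, so no count test could span the stages and the depth of hILOs is unknown.

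CPM was divided by union exon length (GENCODE release 44), and both units were rescaled over 19565 of 20046 protein-coding genes. The 13 mitochondrially encoded genes were left out, a departure from the planned design, because they were at 0 in all hILO libraries. Genes with a mean level of at least 1 at a stage were tested on log2(level + 1) with limma 3.58.1 under R 4.3.3 (eBayes, trend), and 5230 were not tested. Shared sequence is the percent of 75-base words, started every 5 bases, that another gene also holds. Tested on simulated data, the stage fit recovered 200 of 200 genes changed by 3 (log2) among 13856 genes. The interaction fit recovered 200 of 200 changed by 2 among 14004 with 15 false calls. Recovery under the unlike units, shared sequence and listed zeros of the real libraries was not tested. Python 3.11.15, pandas 2.3.3 and numpy 2.4.6 were used.

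Members and lists were chosen with earlier results of these data known. Named genes were the leading members of each list and at most 4 further called members in each direction, the 12 largest differences in each direction at a level of at least 10, genes the study names, and 5 interaction genes in each direction. Genes named outside that rule, chosen after their values were seen, were HES4, HEY2, DTX1, RBPJ, ESPL1, MCM6, MCM7, EGFR, SOX4, SOX11, ST18, PTF1A, PYY, IAPP, PAM, CPLX1, RAB3A, RAB3B, FFAR1, GLP1R, SLC2A1, SLC2A2, PDGFRA, APOA2, the neighbours of CHGA and the genes given as examples of a 0 in PPs. Other scalings, lengths, pseudocounts, filters, a replicate block and leaving out each library were tried, and the fits with mitochondrially encoded genes and without shared genes were added after seeing the data. Some list members and named genes are not reported here.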

Additional observations from a re-analysis of the deposited data

Results flagged for a closer look

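The stage difference (log2, hILO minus PP) differed between WT and A5-KO by the interaction test in each of the genes below, and values are WT minus A5-KO. The largest were TMEM176A (6.43), TMEM176B (5.11), the metallothionein MT1H (4.33), SRRM3 (-3.99), EPHB2 (3.18), PLCL1 (3.15), CRP (-3.85), GC, for the vitamin D binding protein (-3.16), DHRSX (-3.68, 100% shared sequence) and PCDHGB5 (-3.18, 54.2% shared). CRP, an acute phase protein, was listed at 0 and 0 in WT PPs and 0.344 and 0.490 in WT hILOs, against 0 and 0 in A5-KO PPs and 21.0 and 17.9 in A5-KO hILOs. PLCL1 was at 1.32 and 0.987 in WT PPs and 15.2 and 16.8 in WT hILOs, against 1.13 and 1.18 in A5-KO PPs and 0.458 and 1.53 in A5-KO hILOs.

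Of 7 hormone genes 4 had a higher and 1 a lower WT difference, against 4.7% and 2.64% of all genes in this test. Of 14 granule genes 2 had a higher and 1 a lower one. The called genes included SST (1.62), PPY (2.33), GCG (0.77), INS (0.73) and PCSK1 (0.59). In the other direction were PYY (-1.82) and SCG2 (-1.05), as well as the factor NEUROD1 (-0.99). Hepatocyte-type genes went both ways. The WT stage difference was higher in 7, among them FGB (2.73), AFP (1.03), TTR (0.93) and ALB (0.59), and lower in 4, among them APOA2 (-2.31) and APOH (-0.88). These values compare stage differences and in general do not rank the levels of the genotypes at a stage. INS had no listed transcript in the PPs of either genotype, so its value compares the hILO levels alone. The paper reported ALB and AFP as upregulated in A5-KO PPs, and more cells staining for both proteins in A5-KO hILOs. Cell cycle genes differed in CDK1 (1.25), TOP2A (0.97), AURKB (0.73) and CDKN1C (-0.81). LIN28A (1.29) and ETV4 (0.87) differed as well. The calls of PCSK1, ALB and CDKN1C were each lost without any 1 of 7 of the 8 libraries, and that of AURKB without WT PP replicate 2.

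Mitochondrially encoded mRNAs, which entered no comparison, took 8.03% and 8.11% of CPM in the 2 WT PP libraries (9.40% and 9.12% in A5-KO PPs) and were listed at 0 in all hILO libraries.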

How the results depend on the processing

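Of 5712 single-gene values over 251 named genes and their alternatives, 5401 kept direction and side of the limit, 198 lost a call, 112 gained one and 1 reversed, and of 462 interaction values over 31 genes 412 kept both and 50 lost the call. The reversed value was FTO without length correction (-2.14, against 0.01), and leaving out lengths changes the ratio of the units by construction. Genes called higher in hILOs (2010) numbered 1182 with a pseudocount of 5, 4460 at 1.5-fold and 953 among unshared genes. Genes called higher in PPs (902) numbered 593 with the longest transcript, 1944 without length correction, 1406 with reference gene scaling, 1377 with a pseudocount of 0.1, 422 with a pseudocount of 5, 5152 at 1.5-fold and 525 with mitochondrially encoded genes kept. List members called higher in hILOs (123) numbered 194 at 1.5-fold, and those higher in PPs (84) numbered 55 with a pseudocount of 5 and 210 at 1.5-fold. Beyond the settings whose construction shows it, the cause was not tested. Leaving out a library gave 1963 to 2024 and 842 to 932 stage calls, 122 to 126 and 81 to 86 list members, and 303 to 622 and 211 to 317 interaction calls. The lowest were without WT PP replicate 2 (303 and 211) and replicate 1 (385 and 218), and without A5-KO PP replicate 1 there were 450 against 687.

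The replicate numbers did not pair the WT libraries (correlation of deviations across 11016 genes -0.016), so the replicate block stands only here: it gave 2016 and 905 stage calls, which held all 2912 of the unblocked ones, and 621 and 324 interaction calls. With 2 libraries per group and no read depth for hILOs, low genes are limited most, and a gene listed at 0 in PPs has no lower bound on its fold here.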

Other observations

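Genes of the interferon and chemokine response, chosen after their values were seen, were also higher in hILOs. GBP1, an interferon-induced GTPase, was at 0.237 and 0.303 in PPs and 78.9 and 80.3 in hILOs (5.99 ± 0.11). IFI27 was at 0.314 and 0.186 and 64.9 and 60.3 (5.67 ± 0.12), IFIT3 at 0.798 and 0.699 and 37.0 and 46.5 (4.60 ± 0.15), IFIT1 at 2.00 and 1.94 and 15.0 and 13.6 (2.36 ± 0.12) and DDX60 at 0.267 and 0.0800 and 14.8 and 13.7 (3.70 ± 0.15). Among chemokines, CXCL8 was at 0.558 and 0.179 in PPs and 83.2 and 93.9 in hILOs (6.04 ± 0.18) and CXCL10 at 5.66 and 14.3 and 74.5 and 76.3 (2.92 ± 0.41), with its PP libraries apart from each other. IFIT2 had a log2 difference of 1.57 ± 0.22 and was not called. These are values of 8 picked genes and describe no pathway.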
